A study of Homo sapiens with 8 samples.

Results

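The response of control cells to retinoic acid (RA) was followed in NTera2/D1, a human embryonal carcinoma line established from a testicular germ cell tumour and grown in culture. The 4 arrays of siLacZ cells, of 8 arrays in the series, make up the comparison, and they were chosen by their labels. Cells with siLacZ, a small interfering RNA against the bacterial gene LacZ that serves as the control, received 10 µM RA or its solvent DMSO (0 µM RA) for 72 h, with 2 arrays per treatment numbered GF117 and GF120. The other 4 arrays hold cells with siRNF20, against the histone H2B ubiquitin ligase RNF20, given the same 10 µM RA or DMSO. All cells thus carried a small interfering RNA and none was left without one, and the labels call the 2 arrays of a group biological duplicates. Gene expression was measured on Affymetrix Human Exon 1.0 ST arrays, on which each gene is read by several array rows. A gene's value is the median log2 intensity of its rows that are not dim. The RA siLacZ array numbered GF117 stood apart from the other 7 and was left out of the fit, so that the comparison rests on 1 RA array (GF120) against 2 DMSO arrays. Below, "the RA array" is that GF120 array, and the GF117 one is always named.

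Retinoic acid is made from vitamin A and enters the nucleus, where it binds receptors (RARs) that sit on DNA as dimers with RXR partners. The receptor pair recognises 2 copies of a short half-site, and binding of the ligand exchanges repressors for activators of transcription. In the embryo a gradient of RA patterns the hindbrain and spinal cord, and embryonal carcinoma cells given RA leave their stem-cell-like state over several days and take up neural and other fates. The HOX genes, the enzymes and receptors of the retinoid system and the factors of pluripotency are the textbook readouts of that exit. The values below concern the other gene programmes, arranged in 50 lists by function.

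The 7 arrays of the fit correlated with one another at Pearson r from 0.908 to 0.975 over genes, while the GF117 RA array reached 0.135 to 0.239 with them (each a description, since all arrays share the same probes). The median gene stood at a log2 intensity of 6.43 on the RA array, 6.50 and 6.39 on the DMSO arrays and 5.51 on the GF117 RA array. The 11 measured markers of embryonal carcinoma all lay above the median gene on both DMSO arrays and 9 of them did on the RA array. Among those that define the line, LIN28A read 11.44 on the RA array, against 11.71 and 11.58 on the DMSO arrays and SALL4 read 9.86 on the RA array, against 9.74 and 9.78 on the DMSO arrays; neither passed the test (adjusted p = 0.487 for LIN28A and 0.83 for SALL4). POU5F1 read 5.68 on the RA array, against 7.58 and 7.43 on the DMSO arrays, on 3 rows, and fell (adjusted p = 0.0362). In all 7 of the 11 fell (63.6%) and 0 rose, with a median log2 change of -1.03. NANOG (-3.82) and CRIPTO (-3.26), on 2 rows each, and L1TD1 (-2.57) fell most, followed by GDF3, TRIM71 (-1.03) and SOX2 (-0.62), while PODXL and DPPA4 did not pass. CRIPTO and POU5F1 have near-identical copies that were called as well (CRIPTO3, POU5F1B and POU5F1P3) and are uncertain to that extent. The calls of POU5F1, TRIM71 and SOX2 ended without a DMSO array (adjusted p from 0.12 to 0.162). Of the markers of other cell types, 0 of 11 for yolk sac and endoderm lay above the median gene on these 3 arrays. For skeletal muscle 1 of 9 did so on the RA array, against 0 and 1 on the DMSO arrays. The neural progenitor list had 8 of 10 markers above the median gene on the RA array, against 5 and 6, the neuron list 5 of 10, against 3 and 4, and the fibroblast list 4 of 10, against 3 and 1. The trophoblast list had 2 of 9, against 1 on each, the mesoderm list 2 of 12, against 4 and 3, the blood and endothelium list 2 of 8, against 1 on each, and the seminoma and germ cell list 2 of 8 on all 3. On the GF117 RA array 9 of 9 skeletal muscle, 10 of 12 mesoderm, 8 of 11 yolk sac and endoderm and 8 of 9 trophoblast markers lay above its median gene, but 4 of 11 embryonal carcinoma markers. In whole-culture RNA a change in the share of cells of a type and a change in RNA per cell cannot be told apart.

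RA moved genes in both directions, with more large increases than large decreases. limma, a linear model that pools the spread over all genes, called 733 of 18732 genes at an adjusted p below 0.05 (3.91%), 352 of them higher (1.88%) and 381 lower (2.03%). With the GF117 RA array kept in its group, limma called 0 of them: the smallest adjusted p was 0.131, 1510 genes passed 0.05 without adjustment and the median gene changed by -0.49. Every call below therefore holds for the 7 arrays only. On the RA array all 352 higher and all 381 lower genes lay beyond both DMSO arrays, so that this trait sets no called gene apart. The rows of a gene were read on the same RA array, so counts of rows given below are no replicates. At least 4-fold were 146 of the higher genes and 76 of the lower ones; at least 16-fold were 22 and 2. The higher genes had a median level of 7.83 on the RA array and 5.78 over the DMSO arrays, and 231 of the 352 (65.6%) lay below the median gene in DMSO. The lower genes had a median level of 6.54 on the RA array and 8.07 over the DMSO arrays, and 332 of the 381 (87.1%) lay above the median gene in DMSO. For dim genes the size of a fold change depends on how background light was treated, which the sources used here do not give. When an offset of 16 was added to the intensities before the logarithm, 26 of 136 called genes named by the rule had folds over 1.5 times smaller, and 0 changed sign. In 9 of them both DMSO arrays read below 3.97, the log2 level at which an array row was taken as dim, so that their folds are uncertain in size. With the offset their log2 changes were 4.21 for FLJ12825, 3.80 for SEMA3C, 3.75 for ROBO2, 3.44 for SLITRK6, 3.35 for LAMA4, 3.31 for MIR99AHG, 2.93 for HAPLN1, 2.92 for MECOM and 2.79 for CLDN2. In 5 the RA array read below that level, with -2.52 for ETS1, -2.18 for KDR, -1.97 for D21S2088E, -1.77 for TM4SF18 and -1.45 for HORMAD1. The others were CDH20 (3.33), IGFBP5 (4.28), GFRA1 (4.12), NR2F1 (3.36), PAX6 (2.70), CHRNB4 (2.17), CDH5 (2.10), ZNF436 (1.71), GRPR (-2.72), THBS2 (-2.18), CR2 (-2.09) and KCNK1 (-1.74). The log2 changes printed below carry no offset. The group of RA cells holds 1 array and was assumed to vary like the others, and 312 genes passed without the GF117 DMSO array and 408 without the GF120 one. Of the 352 higher and 381 lower genes, 152 and 102 were called in both of these fits. Leaving out a DMSO siRNF20 array, which enters through the spread alone, ended 160 of the 733 calls, and 160 of these 160 had also ended without a DMSO siLacZ array. Calls named below that ended without a DMSO siLacZ array are listed with each group.

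**Figure D1:**
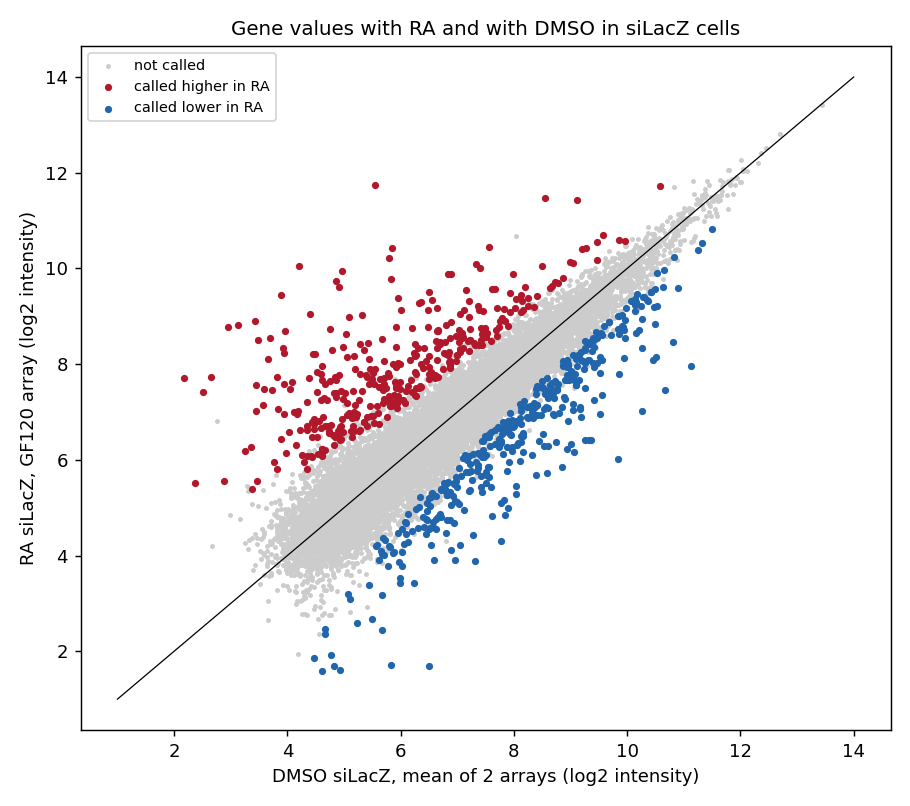
Each point is a gene, at its log2 intensity on the GF120 RA array (vertical axis) and its mean over the 2 DMSO arrays (horizontal axis) in siLacZ cells; the line marks equal values. The 352 genes called higher spread to the left of the plot, with a median DMSO level of 5.78, and the 381 called lower sit to the right, with a median DMSO level of 8.07.

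The RA siLacZ array of GF117, which took no part in the fit, was compared with the calls gene by gene. It read above both DMSO arrays for 158 of the 352 higher genes (44.9%), against 28.5% of all genes. It read below both for 364 of the 381 lower genes (95.5%), against 65.5% of all genes. Of the higher genes 65.6% lay below the median gene in DMSO, and of the lower genes 87.1% lay above it. All genes are therefore no reference of matched level, on an array that followed the others poorly. The median gene was also dimmer on that array than on the others. The part of level and of the dimmer median gene in both shares was not tested. The shares thus cannot show whether the RA response was repeated.

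Promoters were searched for the repeats that RAR dimers bind. Half-sites were AGGTCA or AGTTCA or GGGTCA or GGTTCA, repeated in the same direction with 5, 2 or 1 bases between them, on both strands of the window from 250 bases before to 50 after the start of the gene (RefSeq, GRCh38.p14, 14345 promoters matched). The repeat with a spacer of 5 was present in 10 promoters (0.0697%), among them 1 of 270 belonging to higher genes and 1 of 297 belonging to lower genes. The repeat with a spacer of 2 was in 4 promoters (0.0279%), 1 of higher and 1 of lower genes, and that with a spacer of 1 in 17 (0.119%), none of a called gene. The 4 windows of called genes are shown because they are the only called promoters that hold such letters, with the repeat in capitals; the repeat reads on the printed strand for RARB and PDC and on the opposite strand for F2 and SEMA4A. They lie at chr3:25428170-25428266 (+ strand, RARB), chr1:186461074-186461170 (- strand, PDC), chr11:46719090-46719183 (+ strand, F2) and chr1:156149694-156149772 (+ strand, SEMA4A), with the first base of the repeat 53, 16, 83 and 225 bases before the start of the gene.
RARB: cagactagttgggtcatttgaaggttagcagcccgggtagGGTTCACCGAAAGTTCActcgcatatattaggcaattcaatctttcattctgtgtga
PDC: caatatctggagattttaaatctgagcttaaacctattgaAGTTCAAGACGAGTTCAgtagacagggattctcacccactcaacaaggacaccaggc
F2: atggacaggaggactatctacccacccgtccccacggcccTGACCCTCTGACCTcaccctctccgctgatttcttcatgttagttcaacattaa
SEMA4A: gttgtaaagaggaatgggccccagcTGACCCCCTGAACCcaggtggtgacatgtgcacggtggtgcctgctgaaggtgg
RARB, which encodes retinoic acid receptor beta, read 9.44 on the RA array, against 3.83 and 3.95 on the DMSO arrays and 6.06 on the GF117 RA array. F2, the gene of prothrombin, read 6.43 on the RA array, against 4.77 and 5.12 on the DMSO arrays and rose (log2 change 1.49, SE 0.31, adjusted p = 0.0299), while SEMA4A, a membrane semaphorin, read 5.39 on the RA array, against 6.72 and 6.69 on the DMSO arrays and fell (log2 change -1.31, SE 0.25, adjusted p = 0.0202). PDC rests on 1 array row, with 2.35 on the RA array, against 4.55 and 4.78 on the DMSO arrays. The calls of F2, SEMA4A and PDC ended without a DMSO array (adjusted p from 0.1 to 0.157). A match of letters is a description, and promoters without one may hold sites elsewhere.

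Several genes of axon guidance rose. Of 33 measured semaphorins, plexins and neuropilins, the ligands, receptors and co-receptors that steer growing axons and migrating cells, 9 rose (27.3%, against 1.88% of all genes) and 2 fell. The secreted ligand SEMA3C read 8.50 on the RA array, against 3.29 and 3.69 on the DMSO arrays (log2 change 5.02, SE 0.34, adjusted p = 0.000135), and 21 of its 22 array rows lay above both DMSO arrays. Among receptors, PLXNA2, a plexin that binds semaphorins, read 9.77 on the RA array, against 5.90 and 5.76 on the DMSO arrays (log2 change 3.94, SE 0.24, adjusted p = 9.78e-05). The membrane ligand SEMA6D read 8.16 on the RA array, against 5.39 and 4.96 on the DMSO arrays (log2 change 2.99, SE 0.28, adjusted p = 0.000487). These 3 genes were named for having the largest changes of the list. The co-receptors NRP1 (1.88) and NRP2 (1.84) rose together with the ligands SEMA4G (2.87), SEMA3E (2.16) and SEMA3D (1.65) and the receptor gene PLXNB2 (1.25), all as log2 changes. The members that fell were SEMA6A (-0.93) and SEMA4A, given above. On the GF117 RA array PLXNA2 read 7.12 and SEMA3C 3.90, both above the DMSO arrays, and SEMA6D read 2.84, below them. The median change over the 33 genes was 0.003, beside -0.05 over all genes. Without one of the DMSO arrays the calls of SEMA3D, PLXNB2 and SEMA6A ended (adjusted p from 0.125 to 0.151).

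Other guidance systems had fewer responders, with 8.33% of netrin and slit guidance genes higher, against 1.88% of all genes. ROBO2, a receptor for the repellent SLIT proteins, read 8.55 on the RA array, against 3.83 and 3.55 on the DMSO arrays (log2 change 4.85, SE 0.36, adjusted p = 0.000153), and RGMB, a membrane-anchored guidance molecule that also binds BMPs, read 8.26 on the RA array, against 7.07 and 6.65 on the DMSO arrays (log2 change 1.40, SE 0.25, adjusted p = 0.0155); they were the 2 called among 24 netrin and slit guidance genes, where 0 fell. Eph receptors and ephrins, which signal between touching cells, were split, with 2 of 22 higher and 2 lower (9.09% each, against 1.88% and 2.03% of all genes). The receptor gene EPHB3 read 8.01 on the RA array, against 6.22 and 5.51 on the DMSO arrays (log2 change 2.14, SE 0.32, adjusted p = 0.00562) and the ligand gene EFNB2 8.87 on the RA array, against 6.87 and 6.91 on the DMSO arrays (log2 change 1.99, SE 0.25, adjusted p = 0.00227). EPHA1 went the other way with 5.17 on the RA array, against 8.19 and 7.46 on the DMSO arrays (log2 change -2.66, SE 0.31, adjusted p = 0.00149), as did EPHA4 (-1.19). In each of these genes the RA array lay outside the range of the DMSO arrays, as it did for every called gene. The calls of RGMB and EPHA4 ended without one of the DMSO arrays (adjusted p from 0.0757 to 0.171).

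Several cell adhesion molecules of the nervous system rose. Of 48 classical cadherins and non-clustered protocadherins, 6 rose and 3 fell (12.5% and 6.25%, against 1.88% and 2.03% of all genes). Of 66 neuronal adhesion proteins 8 rose and 2 fell (12.1% and 3.03%). CDH20, a type II cadherin, read 8.24 on the RA array, against 4.15 and 3.73 on the DMSO arrays (log2 change 4.30, SE 0.34, adjusted p = 0.000223). CDH5, the cadherin that defines endothelium, read 6.99 on the RA array, against 4.11 and 4.13 on the DMSO arrays (log2 change 2.87, SE 0.36, adjusted p = 0.00223), while PECAM1, TIE1 and the other 5 measured markers of blood and endothelium were not called. CDH2, the N-cadherin of neural tissue, read 9.55 on the RA array, against 7.21 and 7.09 on the DMSO arrays (log2 change 2.40, SE 0.20, adjusted p = 0.000254). Of the cadherins that fell, CDH3 (P-cadherin) changed by -1.29 and CDH11 by -1.39 on the log2 scale; PCDH11Y (-2.77), the third, rests on 3 rows and shares most of its sequence with a copy on the X chromosome, which makes it uncertain. Protocadherins PCDH7 (1.72) and PCDH18 (1.49) and CELSR1 (1.18), a planar polarity cadherin, rose. The calls of CDH3, CDH11, PCDH11Y, PCDH7, PCDH18 and CELSR1 were lost without a DMSO array (adjusted p from 0.05 to 0.172).

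SLITRK6, a synaptic organiser with leucine-rich repeats, was among the dimmest genes in DMSO and read 7.72 on the RA array, against 1.43 and 2.90 on the DMSO arrays (log2 change 5.55, SE 0.56, adjusted p = 0.000733). NRCAM, an adhesion molecule of axons, read 7.70 on the RA array, against 5.58 and 5.40 on the DMSO arrays (log2 change 2.21, SE 0.26, adjusted p = 0.00148), and CADM3 read 7.58 on the RA array, against 5.51 and 5.39 on the DMSO arrays (log2 change 2.13, SE 0.30, adjusted p = 0.00398). Of these 3 genes, SLITRK6 is the one whose DMSO values differed most from each other. CNTN1 (2.07), NCAM1 (2.04), CADM1 (1.37), NLGN1 (1.20) and ADGRL2 (0.74) also rose, whereas NLGN4X (-1.16) and CNTNAP2 (-1.21) fell. The GF117 RA array read 4.21 for SLITRK6 and 5.62 for CDH20, above the DMSO arrays, and 5.69 for CDH2 and 4.15 for NRCAM, below them. Leaving out a DMSO array ended the calls of CNTN1, CADM1, NLGN1, ADGRL2 and CNTNAP2 (adjusted p from 0.0508 to 0.177).

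**Figure D2:**
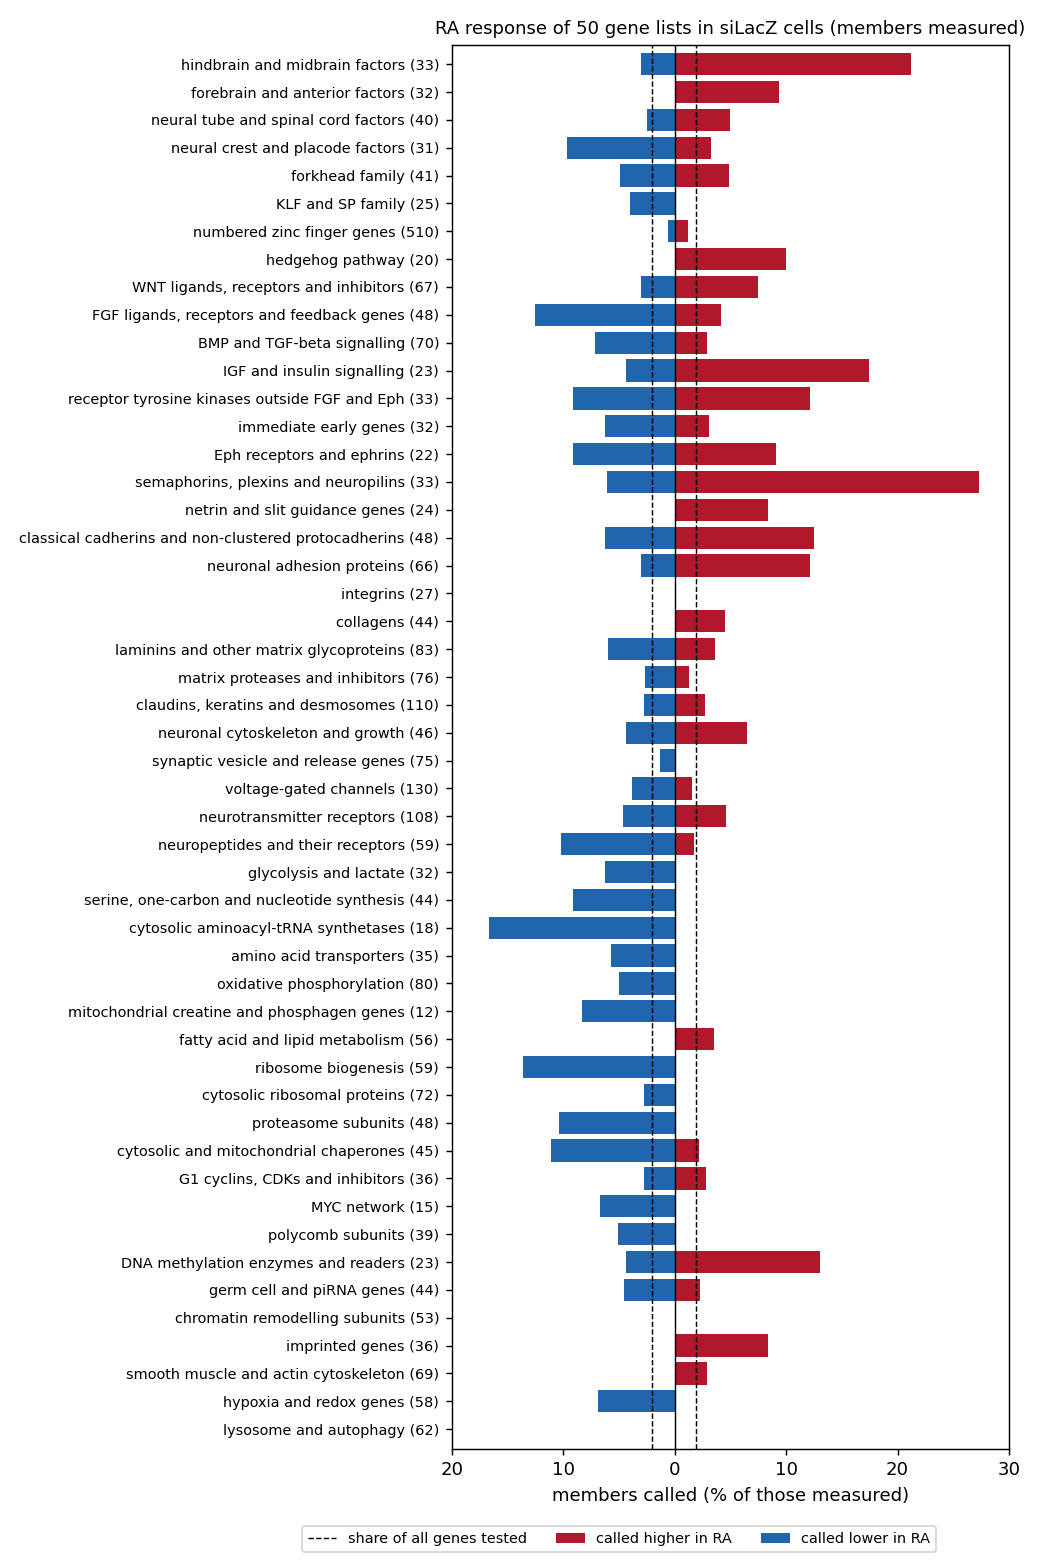
Bars give, for each of 50 gene lists, the percentage of its measured members (number in brackets) called higher with RA (to the right) and called lower (to the left) in siLacZ cells. Dashed lines mark the shares over all genes, 1.88% higher and 2.03% lower; semaphorins, plexins and neuropilins reach 27.3% to the right, and aminoacyl-tRNA synthetases reach 16.7% to the left.

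Several genes filed in the hindbrain and midbrain list rose. The lists were written with earlier results of these data known, so their counts cannot compare regions of the nervous system. Of the 33 genes of this list, which leaves out the HOX genes, 7 rose (21.2%, against 1.88% of all genes) and 1 fell. The other 25 were not called, and the median change of the list was 0.10. NR2F1, an orphan nuclear receptor of the COUP-TF type, read 8.74 on the RA array, against 4.45 and 5.06 on the DMSO arrays (log2 change 3.98, SE 0.34, adjusted p = 0.000308), and its relative NR2F2 read 7.70 on the RA array, against 5.56 and 5.86 on the DMSO arrays (log2 change 1.99, SE 0.27, adjusted p = 0.003). TSHZ1, a zinc finger factor, read 6.73 on the RA array, against 4.81 and 4.75 on the DMSO arrays (log2 change 1.95, SE 0.28, adjusted p = 0.0052). ZNF703 and ZNF503, a pair of related zinc finger repressors, changed by 1.93 and 1.72, and are also counted in the list of numbered zinc finger genes. The homeobox genes IRX3 and IRX1 changed by 1.35 and 1.33. PAX5, a midbrain and hindbrain boundary factor, fell (-1.74). On the GF117 RA array NR2F1 (7.78), NR2F2 (7.07) and ZNF703 (8.30) lay above both DMSO arrays as well. Calls that ended without a DMSO array were those of ZNF503, IRX3, IRX1 and PAX5 (adjusted p from 0.0862 to 0.144).

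Forebrain and anterior factors had 3 of 32 higher (9.38%, against 1.88% of all genes) and 0 lower. FEZF2, a zinc finger factor of the forebrain, read 7.89 on the RA array, against 5.21 and 5.17 on the DMSO arrays (log2 change 2.70, SE 0.30, adjusted p = 0.00112), and VAX2, a homeobox gene of the ventral eye, read 7.45 on the RA array, against 5.15 and 5.47 on the DMSO arrays (log2 change 2.13, SE 0.39, adjusted p = 0.0155). POU3F1 changed by 0.96. In the neural tube and spinal cord list 2 of 40 rose (5.0%, against 1.88% of all genes) and 1 fell (2.5%, near the 2.03% of all genes). PAX6, which sets up neural progenitors and the eye, read 7.63 on the RA array, against 4.01 and 4.16 on the DMSO arrays (log2 change 3.54, SE 0.29, adjusted p = 0.000231), ISL1, a factor of motor and sensory neurons, changed by 1.83, and OLIG3, of the dorsal neural tube, by -1.85. PAX6 and FEZF2 both lay below the median gene in DMSO. The calls of VAX2, POU3F1, ISL1 and OLIG3 did not hold without each DMSO array (adjusted p from 0.0682 to 0.134).

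Neural crest and placode factors had 1 of 31 higher, TFAP2A (1.44), and 3 lower (3.23% and 9.68%, against 1.88% and 2.03% of all genes). ETS1, a factor of neural crest and endothelium, read 3.89 on the RA array, against 7.67 and 6.97 on the DMSO arrays (log2 change -3.43, SE 0.46, adjusted p = 0.0031), with all 19 of its rows below both DMSO arrays, and FOXI3 (-1.39) and ERBB3 (-1.16) fell as well. The forkhead family had 2 of 41 members higher and 2 lower (4.88% each, against 1.88% and 2.03% of all genes). FOXJ1, the master regulator of motile cilia, read 7.39 on the RA array, against 4.88 and 4.85 on the DMSO arrays (log2 change 2.53, SE 0.28, adjusted p = 0.00115) and 7.57 on the GF117 RA array, and FOXP1 changed by 1.19. FOXE3, a lens factor, changed by -1.29, and its GF117 RA value of 8.47 lay above the DMSO arrays. Numbered zinc finger genes, the longest list, had 6 of 510 higher (1.18%) and 3 lower (0.588%), both below the 1.88% and 2.03% of all genes. Among them ZNF436 rose most (2.40). KLF4 was the 1 called of 25 KLF and SP genes and fell (-1.85), a share of 4.0%, against 2.03% of all genes. Of the crest, forkhead and zinc finger genes, the calls of TFAP2A, FOXI3, ERBB3, FOXP1, FOXE3, ZNF436 and KLF4 ended without a DMSO array (adjusted p from 0.0676 to 0.151).

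The FGF feedback genes SPRY4 and SPRY2 fell and DUSP6 rose. Among 48 FGF ligands, receptors and feedback genes 6 fell (12.5%, against 2.03% of all genes) and 2 rose (4.17%, against 1.88%). The feedback inhibitor SPRY4 read 5.0 on the RA array, against 8.25 and 7.55 on the DMSO arrays (log2 change -2.90, SE 0.32, adjusted p = 0.00104), and SPRY2 read 6.23 on the RA array, against 8.98 and 8.88 on the DMSO arrays (log2 change -2.71, SE 0.21, adjusted p = 0.000206). On the GF117 RA array SPRY4 and SPRY2 read 4.76 and 5.36. ETV4, a transcription factor induced by FGF signals (-2.10), IL17RD, a membrane inhibitor of the pathway (-1.53), and the ligand genes FGF2 (-1.47) and FGF4 (-1.45) fell too. DUSP6, a phosphatase that dampens ERK and is itself an FGF feedback gene, went the other way with 10.10 on the RA array, against 8.03 and 6.62 on the DMSO arrays (log2 change 2.77, SE 0.54, adjusted p = 0.0216), and its DMSO values were 1.41 apart. FLRT3, a membrane protein that binds FGF receptors, rose (1.93). Leaving out one DMSO array ended the calls of IL17RD, FGF4, DUSP6 and FLRT3 (adjusted p from 0.0559 to 0.0977).

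The IGF and insulin list had 4 of 23 higher (17.4%, against 1.88% of all genes) and 1 lower (4.35%, against 2.03%), with a median of -0.06. H19, an imprinted non-coding RNA expressed next to IGF2, read 11.74 on the RA array, against 5.29 and 5.79 on the DMSO arrays and 10.86 on the GF117 RA array, and all 17 of its rows were above both DMSO arrays. IGFBP5, which binds IGFs outside the cell, read 9.74 on the RA array, against 4.73 and 4.99 on the DMSO arrays (log2 change 4.88, SE 0.53, adjusted p = 0.001). IGFBP2 (1.09) and IGFBP6 (1.11) rose by less, and the adaptor gene GRB14, an inhibitor of the insulin receptor, read 4.55 on the RA array, against 6.78 and 6.23 on the DMSO arrays and fell (log2 change -1.96, SE 0.33, adjusted p = 0.011). Receptor tyrosine kinases outside the FGF and Eph families were split, with 4 of 33 higher and 3 lower (12.1% and 9.09%, against 1.88% and 2.03%). PDGFRA, a receptor for platelet-derived growth factor, read 8.11 on the RA array, against 5.71 and 5.19 on the DMSO arrays (log2 change 2.65, SE 0.32, adjusted p = 0.00167), and MERTK, a receptor for the uptake of dying cells, read 8.69 on the RA array, against 6.90 and 6.39 on the DMSO arrays (log2 change 2.04, SE 0.29, adjusted p = 0.00459). The neurotrophin receptor genes NTRK3 (1.47) and NTRK2 (1.46) rose. KDR, the main VEGF receptor, read 3.90 on the RA array, against 7.24 and 6.67 on the DMSO arrays (log2 change -3.05, SE 0.33, adjusted p = 0.000978), and RET (-1.55) fell. KDR was lower in 37 of its 38 rows. The immediate early list had 1 of 32 higher, BTG2, an antiproliferative gene (1.76), and 2 lower, KLF4 and MYC. These shares were 3.12% and 6.25%, against 1.88% and 2.03% of all genes. Without a DMSO array the calls of IGFBP6, GRB14, NTRK3, NTRK2, RET and BTG2 ended (adjusted p from 0.0642 to 0.158).

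Among genes of BMP, WNT and hedgehog signalling, single inhibitors and co-receptors rose and the BMP-induced genes ID3, ID1 and ID4 fell. Of 70 BMP and TGF-beta genes, 2 rose and 5 fell, and the median change was 0.022. These shares were 2.86% and 7.14%, against 1.88% and 2.03% of all genes. NOG, a secreted antagonist that traps BMPs, read 7.73 on the RA array, against 5.65 and 5.15 on the DMSO arrays (log2 change 2.32, SE 0.29, adjusted p = 0.00206), and the activin receptor gene ACVR2A rose (0.98). ID3, a target gene of BMP signals that blocks bHLH factors, read 6.89 on the RA array, against 9.51 and 8.87 on the DMSO arrays (log2 change -2.30, SE 0.28, adjusted p = 0.00171), and its relatives ID1 (-2.06) and ID4 (-1.30) fell with it. GDF3, a ligand of the family expressed by stem cells, read 8.09 on the RA array, against 10.29 and 10.62 on the DMSO arrays (log2 change -2.36, SE 0.20, adjusted p = 0.00029), and the activin antagonist FST fell (-1.95). NOG was as high on the GF117 RA array, with 7.76, as on the GF120 one, while ID3 (5.23) and GDF3 (5.33) were lower there than on both DMSO arrays. With one DMSO array fewer, ACVR2A, ID4 and FST were no longer called (adjusted p from 0.125 to 0.158).

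Of 67 WNT ligands, receptors and inhibitors, 5 rose (7.46%, against 1.88% of all genes) and 2 fell (2.99%, against 2.03%). WLS, the carrier that brings WNT ligands to the cell surface, read 11.47 on the RA array, against 7.92 and 9.19 on the DMSO arrays (log2 change 2.91, SE 0.56, adjusted p = 0.0215). FRZB, a secreted WNT antagonist, read 7.45 on the RA array, against 5.49 and 4.84 on the DMSO arrays (log2 change 2.28, SE 0.42, adjusted p = 0.017), and the ligand gene WNT2B read 6.72 on the RA array, against 4.87 and 4.47 on the DMSO arrays (log2 change 2.05, SE 0.44, adjusted p = 0.0343). The DMSO values of WLS lay 1.27 apart, which is less than the distance to the RA value. Receptor genes moved both ways, with FZD4 (1.62) and FZD6 (1.32) higher and FZD5 (-1.15) and ROR1 (-1.70) lower. The share of hedgehog pathway genes called higher was 10.0%, against 1.88% of all genes. In the hedgehog pathway 2 of 20 rose and 0 fell: the co-receptor CDON read 9.14 on the RA array, against 6.54 and 6.43 on the DMSO arrays (log2 change 2.65, SE 0.23, adjusted p = 0.000325), in 31 of 31 rows, and its relative BOC read 7.12 on the RA array, against 5.92 and 5.25 on the DMSO arrays (log2 change 1.54, SE 0.31, adjusted p = 0.0266). The calls of WLS, FRZB, WNT2B, FZD6, FZD5 and BOC ended when a DMSO array was left out (adjusted p from 0.0604 to 0.14).

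The extracellular matrix changed in single members. Laminins and other matrix glycoproteins had 3 of 83 higher and 5 lower (3.61% and 6.02%, against 1.88% and 2.03% of all genes). LAMA4, the alpha 4 chain of laminins, read 8.11 on the RA array, against 3.53 and 3.79 on the DMSO arrays (log2 change 4.46, SE 0.34, adjusted p = 0.0002) and 5.44 on the GF117 RA array. GPC6, a glypican (1.90), and LAMB2 (1.16) rose. THBS2, a thrombospondin, read 4.44 on the RA array, against 7.55 and 7.0 on the DMSO arrays (log2 change -2.84, SE 0.31, adjusted p = 0.00104), and HAS3, a hyaluronan synthase, read 4.96 on the RA array, against 7.23 and 7.01 on the DMSO arrays (log2 change -2.16, SE 0.28, adjusted p = 0.00227). TNC (-1.37), EMILIN2 (-1.27) and SPP1 (-0.95) fell. Collagens had 2 of 44 higher (4.55%, against 1.88% of all genes), COL5A2 (1.37, with 60 of 61 rows above both DMSO arrays) and COL1A1 (1.30). COL1A1 is among the 10 measured fibroblast markers, of which 2 rose and 1 fell, the lowest change being -1.87. Among 76 matrix proteases and inhibitors, the metalloprotease gene MMP11 rose (1.44) and 2 inhibitors fell. These shares, 1.32% higher and 2.63% lower, were near the 1.88% and 2.03% of all genes. TIMP4 read 5.74 on the RA array, against 8.81 and 8.35 on the DMSO arrays (log2 change -2.85, SE 0.26, adjusted p = 0.00041), and SERPINE2, an inhibitor of serine proteases, read 6.93 on the RA array, against 8.71 and 8.71 on the DMSO arrays (log2 change -1.78, SE 0.21, adjusted p = 0.00136). None of 27 integrins was called, and their median change was -0.08. Without a DMSO array LAMB2, TNC, EMILIN2, SPP1, COL5A2, COL1A1 and MMP11 were not called (adjusted p from 0.0643 to 0.179).

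In the list of claudins, keratins and desmosome genes, which also holds other epithelial genes, 3 of 110 were higher and 3 lower. These shares, 2.73% each, were near the 1.88% higher and 2.03% lower of all genes. CLDN2, a claudin that forms pores for cations, read 7.47 on the RA array, against 3.40 and 3.77 on the DMSO arrays (log2 change 3.89, SE 0.41, adjusted p = 0.000825), and the desmosome genes PKP2 (1.65) and JUP (1.19) rose. EPCAM, an adhesion molecule of epithelia and stem cells, read 7.11 on the RA array, against 9.18 and 9.16 on the DMSO arrays (log2 change -2.06, SE 0.21, adjusted p = 0.00078), and ESRP1, an epithelial splicing factor (-1.62), and F11R, a tight junction gene (-1.30), fell. CLDN2 and EPCAM thus moved in opposite directions. Smooth muscle and actin genes had 2 of 69 higher (2.9%, near the 1.88% of all genes), ACTA2 (1.71) and PDLIM1 (1.13). Calls lost without a DMSO array were those of JUP, ACTA2 and PDLIM1 (adjusted p from 0.0613 to 0.172).

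Genes of neuronal function moved in both directions. In the list of neuronal cytoskeleton and growth 3 of 46 rose and 2 fell (6.52% and 4.35%, against 1.88% and 2.03% of all genes). DCX, a microtubule protein of migrating neurons, read 8.75 on the RA array, against 6.25 and 6.16 on the DMSO arrays (log2 change 2.55, SE 0.23, adjusted p = 0.00041), and DPYSL5 (1.56) and TUBA1A (1.16) rose. DCLK1, a relative of DCX, read 6.81 on the RA array, against 9.07 and 8.85 on the DMSO arrays (log2 change -2.15, SE 0.21, adjusted p = 0.000584) and DPYSL3 fell (-1.11). Of 75 synaptic vesicle and release genes 0 rose, and UNC13A, which primes vesicles for release, read 5.44 on the RA array, against 7.80 and 7.39 on the DMSO arrays (log2 change -2.15, SE 0.27, adjusted p = 0.00216), lower in 46 of 46 rows. UNC13A was the 1 member of that list called lower (1.33%, below the 2.03% of all genes). The median of the list was -0.23, with 53 of 75 members below 0 (70.7%, against 55.3% of all genes). The call of DPYSL3 was lost without a DMSO array (adjusted p = 0.107).

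Receptors and channels had called members in both directions. Of 108 neurotransmitter receptors 5 rose and 5 fell (4.63% each, against 1.88% and 2.03% of all genes). GABRP, the pi subunit of the GABA-A receptor, read 8.98 on the RA array, against 5.07 and 5.11 on the DMSO arrays (log2 change 3.89, SE 0.36, adjusted p = 0.000458), higher in 15 of 15 rows, and the nicotinic subunit CHRNB4 read 7.21 on the RA array, against 4.57 and 4.11 on the DMSO arrays (log2 change 2.87, SE 0.46, adjusted p = 0.00882). HTR1D, a serotonin receptor, read 9.18 on the RA array, against 6.65 and 6.65 on the DMSO arrays (log2 change 2.53, SE 0.29, adjusted p = 0.00124). The nicotinic subunit CHRNA3 (1.92) and the ATP-gated channel P2RX3 (1.89) rose, whereas HTR3A (-2.11), GABRA5 (-1.75), GABBR1 (-1.37), GLRA4 (-1.36) and ADRA2C (-1.30) fell. Voltage-gated and related channels had 2 of 130 higher (1.54%, against 1.88% of all genes), KCNIP1 (2.45) and CACNG6 (1.95). Another 5 were lower (3.85%, against 2.03%), led by the potassium channel genes KCNK1 (-2.33) and KCNG3 (-2.13). Neuropeptides and their receptors had 6 of 59 lower (10.2%, against 2.03% of all genes) and 1 higher (1.69%, near the 1.88% of all genes). GRPR, the receptor for gastrin-releasing peptide, read 4.30 on the RA array, against 7.43 and 8.12 on the DMSO arrays (log2 change -3.47, SE 0.37, adjusted p = 0.000973), ADM, the vasodilator adrenomedullin, read 6.27 on the RA array, against 7.87 and 8.05 on the DMSO arrays (log2 change -1.69, SE 0.22, adjusted p = 0.00232), and OPRM1, the mu opioid receptor, changed by -1.82. On the GF117 RA array OPRM1 read 7.80, above both DMSO arrays. Somatostatin (SST, 3.02, on 3 rows) rose, and GAL (-1.46), PTH1R (-1.03) and MAS1 (-4.82, on 1 row) fell. With a DMSO array left out the calls of CHRNB4, CHRNA3, P2RX3, GABBR1, GLRA4, ADRA2C, OPRM1, SST, GAL and PTH1R ended (adjusted p from 0.05 to 0.165).

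Genes that make, fold and degrade proteins fell in several members and rose in 1. Among the 4683 genes with the highest level, 3.95% were called lower and 1.62% higher, and the median change was -0.08; these hold 52 of the 59 genes of ribosome biogenesis, 67 of 72 cytosolic ribosomal proteins, 38 of 48 proteasome subunits and 28 of 45 chaperones. Ribosome biogenesis, the assembly of ribosomes in the nucleolus, had 8 of 59 members lower (13.6%) and 0 higher, a median of -0.41, and 51 of 59 members below 0 (86.4%, against 55.3% of all genes). NOP16, a nucleolar protein, read 7.11 on the RA array, against 9.02 and 8.66 on the DMSO arrays (log2 change -1.74, SE 0.28, adjusted p = 0.00852), UTP18 read 7.41 on the RA array, against 8.52 and 8.87 on the DMSO arrays (log2 change -1.29, SE 0.22, adjusted p = 0.011) and IMP3 read 7.38 on the RA array, against 8.82 and 8.52 on the DMSO arrays (log2 change -1.28, SE 0.27, adjusted p = 0.0283). In each of them the RA array lay more than 1 log2 unit below the lower DMSO array. The others that fell were RRP9 (-1.08), PNO1 (-1.06), RRS1 (-0.91), WDR12 (-0.81) and GNL3 (-0.79). Proteasome subunits had 5 of 48 lower (10.4%), led by PSMA3 with 7.06 on the RA array, against 8.52 and 8.54 on the DMSO arrays (log2 change -1.47, SE 0.22, adjusted p = 0.00613), PSMB1 (-1.17) and PSMD14 (-1.15). Chaperones had 5 of 45 lower (11.1%) and 1 higher, the small heat shock gene HSPB8 (1.55). The mitochondrial chaperone HSPA9 read 8.27 on the RA array, against 9.55 and 9.22 on the DMSO arrays (log2 change -1.12, SE 0.22, adjusted p = 0.0244) and CCT5, a subunit of the cytosolic chaperonin, changed by -1.12. Of 72 cytosolic ribosomal proteins 2 fell (2.78%, below the 3.95% of the genes of highest level), RPL9 (-0.86) and RPL26 (-0.69), and the list's median was -0.14. Most of these calls needed both DMSO arrays. Without one of the DMSO arrays no call remained for NOP16, UTP18, IMP3, RRP9, PNO1, RRS1, WDR12, GNL3, PSMB1, PSMD14, HSPB8, HSPA9, CCT5 and RPL26 (adjusted p from 0.0609 to 0.197). In siRNF20 cells, whose 4 arrays are separate, the medians with RA were -0.38 for ribosome biogenesis, with 9 members lower of which 1 was also called in siLacZ cells, and -0.13 for the proteasome and -0.13 for chaperones, with 0 members of the last pair of lists called. Within GF120 alone, RA array against DMSO array, the siLacZ medians were -0.42, -0.17 and -0.15 in the same order. For cytosolic ribosomal proteins the median was 0.034 in siRNF20 cells, on the other side of 0, and -0.16 within GF120 alone.

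Single metabolic genes fell in the pathways of tRNA charging, one-carbon units and amino acids. Cytosolic aminoacyl-tRNA synthetases, which charge tRNAs, had 3 of 18 lower (16.7%, against 3.95% of the genes of highest level). Of the 18, 16 were below 0, with a median of -0.44. TARS1 read 9.22 on the RA array, against 10.23 and 10.26 on the DMSO arrays (log2 change -1.02, SE 0.17, adjusted p = 0.00925), and YARS1 (-0.83) and RARS1 (-0.79) fell by less. Serine, one-carbon and nucleotide synthesis had 4 of 44 lower (9.09%, against 3.95% of the genes of highest level) and 0 higher. MTHFD2, a mitochondrial folate enzyme of proliferating cells, read 8.72 on the RA array, against 10.24 and 10.18 on the DMSO arrays (log2 change -1.49, SE 0.17, adjusted p = 0.00115), lower in 10 of 10 rows, and GCSH (-1.29), ATIC (-0.89) and MTHFD1 (-0.80) fell with it. Amino acid transporters had 2 of 35 lower, SLC7A7 (-1.26) and SLC7A3 (-0.92). The shares called lower were 5.71% for these transporters and 6.25% for glycolysis, against 2.03% of all genes. Glycolysis had 2 of 32 lower, and HK1, the first enzyme of the pathway, read 7.32 on the RA array, against 9.13 and 8.65 on the DMSO arrays (log2 change -1.57, SE 0.26, adjusted p = 0.0102), while ALDOC changed by -0.96. Of these calls, those of TARS1, YARS1, RARS1, GCSH, ATIC, MTHFD1, SLC7A7, SLC7A3, HK1 and ALDOC ended without a DMSO array (adjusted p from 0.05 to 0.215).

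Oxidative phosphorylation had 4 of 80 lower (5.0%, near the 3.95% of the genes of highest level) and 0 higher, against 0 members called in siRNF20 cells, with SDHD of complex II at 7.69 on the RA array, against 8.85 and 9.11 on the DMSO arrays (log2 change -1.29, SE 0.19, adjusted p = 0.00633), NDUFA8 of complex I (-1.27), CYCS, cytochrome c (-0.89), and UQCR10 (-0.71). Of 58 hypoxia and redox genes 4 fell (6.9%, against 2.03% of all genes): ADM, the metallothionein gene MT1M (-1.52), the thioredoxin gene TXN (-1.12) and MGST1 (-1.10). Among 12 creatine and phosphagen genes, CKMT1A (-3.24, on 2 rows and nearly identical to CKMT1B, hence uncertain) fell. Of 56 lipid genes 2 were called higher (3.57%, against 1.88% of all genes) and 0 lower, and the median change was 0.0002. FADS1, a fatty acid desaturase, read 10.12 on the RA array, against 8.93 and 9.14 on the DMSO arrays (log2 change 1.08, SE 0.17, adjusted p = 0.0091) and ELOVL6, an elongase, read 8.71 on the RA array, against 7.81 and 7.54 on the DMSO arrays (log2 change 1.03, SE 0.21, adjusted p = 0.0287). None of 62 lysosome and autophagy genes was called. SDHD kept its call without each DMSO array in turn, and NDUFA8, CYCS, UQCR10, MT1M, TXN, MGST1, CKMT1A, FADS1 and ELOVL6 did not (adjusted p from 0.0548 to 0.152).

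Chromatin, imprinted, germ cell and cell cycle genes moved in few members. The list of DNA methylation enzymes and readers also holds other genes. Of its 23 members 3 were higher (13.0%, against 1.88% of all genes) and 1 lower (4.35%, against 2.03%). DNMT3B, the de novo DNA methyltransferase of pluripotent cells, read 8.84 on the RA array, against 10.54 and 10.45 on the DMSO arrays (log2 change -1.65, SE 0.19, adjusted p = 0.00115), lower in 33 of 33 rows. The 3 that rose are neither DNA methyltransferases nor readers of DNA methylation. They were GADD45G (1.51), IDH2 (1.17) and the cytidine deaminase gene APOBEC3B (1.83), and APOBEC3B has near-identical copies and is uncertain. Imprinted genes had 3 of 36 higher (8.33%, against 1.88% of all genes) and 0 lower. Beside H19, MEST read 9.89 on the RA array, against 7.07 and 6.71 on the DMSO arrays (log2 change 3.01, SE 0.24, adjusted p = 0.000231) but 6.06 on the GF117 RA array, below both DMSO arrays, and HYMAI (2.68) rests on 1 row. Germ cell and piRNA genes had 1 of 44 higher, the cohesin gene REC8 (1.38), and 2 lower. These shares, 2.27% and 4.55%, stand beside 1.88% and 2.03% of all genes. PRDM14, a zinc finger factor of germ cells and pluripotency, read 6.33 on the RA array, against 8.74 and 9.29 on the DMSO arrays (log2 change -2.69, SE 0.28, adjusted p = 0.000823), and HORMAD1, a meiotic chromosome protein, changed by -2.23. When a DMSO array was left out, GADD45G, IDH2, APOBEC3B, HYMAI, REC8 and HORMAD1 were no longer called (adjusted p from 0.059 to 0.173).

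Of 36 G1 cyclins, CDKs and inhibitors 1 rose and 1 fell (2.78% each, near the 1.88% and 2.03% of all genes). CCND1, cyclin D1, read 8.14 on the RA array, against 9.87 and 10.02 on the DMSO arrays (log2 change -1.81, SE 0.20, adjusted p = 0.00115), and RB1, the retinoblastoma protein that restrains S phase, read 8.19 on the RA array, against 6.89 and 6.76 on the DMSO arrays (log2 change 1.36, SE 0.26, adjusted p = 0.0212). RB1 read 2.89 on the GF117 RA array, far below the DMSO arrays, and CCND1 read 7.53. MYC was the 1 called of 15 genes of its network (6.67%, against 2.03% of all genes called lower). It fell (-2.67, on 2 rows, with 5.10 on the RA array, against 8.21 and 7.33 on the DMSO arrays). Polycomb subunits had 2 of 39 lower (5.13%, against 2.03% of all genes), RYBP (-1.30) and PHC1 (-1.89, on 1 row), and none of 53 chromatin remodelling subunits was called. The calls of RB1, RYBP and PHC1 did not hold without each DMSO array (adjusted p from 0.0928 to 0.132).

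Many of the largest changes lay outside any list, as did 230 of the 352 higher and 254 of the 381 lower genes. Among the 15 highest, GFRA1, a co-receptor for the neurotrophic factor GDNF, read 9.62 on the RA array, against 5.14 and 4.68 on the DMSO arrays (log2 change 4.71, SE 0.30, adjusted p = 0.000135), in 13 of 13 rows. LAMP5, a membrane protein of the LAMP family found in neurons, read 10.23 on the RA array, against 5.25 and 6.36 on the DMSO arrays (log2 change 4.43, SE 0.49, adjusted p = 0.00112). HAPLN1, which links hyaluronan to proteoglycans, read 7.56 on the RA array, against 3.68 and 3.20 on the DMSO arrays (log2 change 4.12, SE 0.42, adjusted p = 0.00078) and 3.04 on the GF117 RA array, the only one of the 15 not above both DMSO arrays there. MECOM, a zinc finger transcription factor, read 7.73 on the RA array, against 3.84 and 3.79 on the DMSO arrays (log2 change 3.91, SE 0.39, adjusted p = 0.000733). The non-coding gene FLJ12825 read 8.79 on the RA array, against 2.56 and 3.34 on the DMSO arrays (log2 change 5.83, SE 0.41, adjusted p = 0.000135). MIR99AHG, a host of microRNAs, read 7.73 on the RA array, against 2.03 and 3.28 on the DMSO arrays (log2 change 5.07, SE 0.55, adjusted p = 0.001). Both were among the dim genes in DMSO whose values with an offset are given above.

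**Figure D3:**
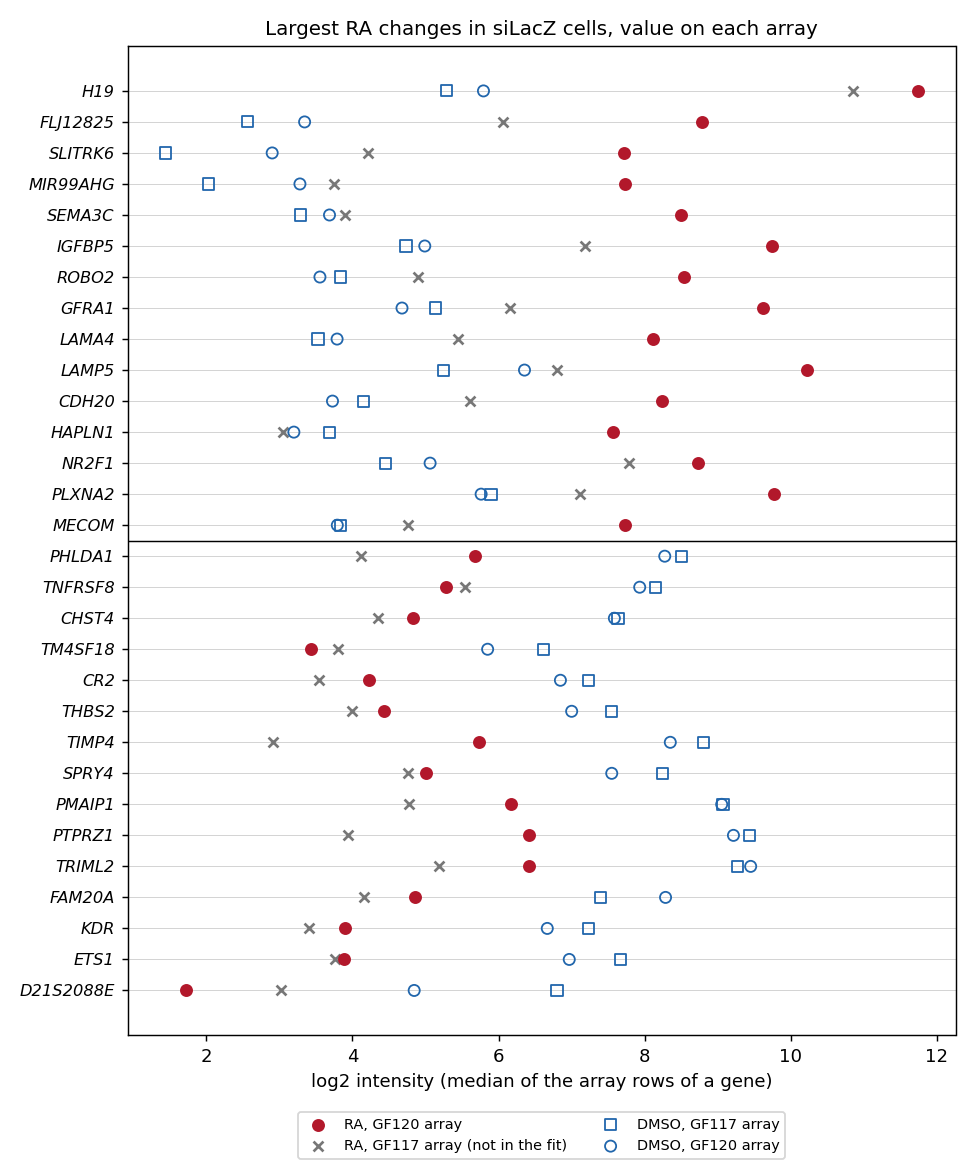
Rows are the 15 genes with the highest and the 15 with the lowest log2 change in siLacZ cells that met the naming rule, and points are log2 intensities on the GF120 RA array (filled), the GF117 RA array (crosses, not in the fit) and the 2 DMSO arrays (open). The naming rule asked for the filled point to lie beyond both open points. Crosses lie above both open points for 14 of the 15 higher genes, many of which read low in DMSO. That count was not set against genes of the same level.

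Among the 15 lowest, TRIML2, of the tripartite motif family, read 6.42 on the RA array, against 9.27 and 9.45 on the DMSO arrays (log2 change -2.95, SE 0.20, adjusted p = 0.000135), and PTPRZ1, a receptor tyrosine phosphatase, read 6.42 on the RA array, against 9.43 and 9.22 on the DMSO arrays (log2 change -2.91, SE 0.30, adjusted p = 0.000778) with 44 of 44 rows lower. PMAIP1, the pro-apoptotic gene also called NOXA, read 6.17 on the RA array, against 9.07 and 9.06 on the DMSO arrays (log2 change -2.90, SE 0.34, adjusted p = 0.0016). TNFRSF8, the CD30 antigen used to recognise embryonal carcinoma, read 5.28 on the RA array, against 8.15 and 7.93 on the DMSO arrays (log2 change -2.76, SE 0.24, adjusted p = 0.000352), and PHLDA1 changed by -2.71. All of them were well above the median gene in DMSO and near or below it with RA. CR2, a complement receptor (-2.81), CHST4, a sulfotransferase (-2.78), FAM20A, a pseudokinase of the secretory pathway (-2.99), and TM4SF18 (-2.80) completed the list. D21S2088E had the lowest value, 1.71 on the RA array, against 6.80 and 4.84 on the DMSO arrays (log2 change -4.11, SE 0.89, adjusted p = 0.035), but rests on DMSO values 1.96 apart and was the 1 of these 30 genes whose call ended without a DMSO array (adjusted p = 0.162 without the GF117 one).

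Some called genes were neighbours. On the RefSeq map of GRCh38.p14, used for order alone since the build of the array is not given, 18618 measured genes could be placed, and 95 called genes lay in 43 runs of genes called in the same direction with no other measured gene between them. In 22 runs the genes were higher (53 genes) and in 21 lower (42 genes). The longest held 6 genes of the HOXD cluster. FLJ12825 lay next to HOXC4, and CDH20 next to RNF152 (1.87). IGFBP2 and IGFBP5 were neighbours, as were CHRNA3 and CHRNB4, the nicotinic subunits, and VAX2 and ATP6V1B1, a proton pump subunit (3.39). PYHIN1 (2.36) and IFI16 (2.95), genes of the HIN domain family, rose together, as did BAALC (3.76), FZD6 and CTHRC1 (1.48). ETS1 and FLI1 (-2.69), related transcription factors, fell together, and so did the mitochondrial chaperones HSPD1 (-0.91) and HSPE1 (-1.10), SNHG4 (-1.99) with SNORA74A (-1.84), and GAS5 (-1.04) with SNORD78 (-1.28). The last pairs overlap as host gene and small nucleolar RNA and cannot be counted apart. APOBEC3D (1.28), APOBEC3F (2.34), APOBEC3G (1.76) and APOBEC3H (2.54) and IFITM1 (-1.92) with IFITM3 (-0.94) have near-identical copies and are uncertain to that extent. Of the genes first named here, the calls of RNF152, CTHRC1, FLI1, HSPD1, HSPE1, SNHG4, SNORA74A, APOBEC3D, APOBEC3G, APOBEC3H and IFITM3 ended without a DMSO array (adjusted p from 0.0637 to 0.213).

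Most of the response was also seen in siRNF20 cells, whose arrays are separate but share the estimate of spread. RA called 734 genes there (3.92%), 335 higher and 399 lower. Of the 352 genes higher in siLacZ cells, 348 had the same sign in siRNF20 cells and 245 were called higher (69.6% of them, and 73.1% of the 335). Of the 381 lower genes 355 had the same sign and 193 were called lower (50.7% of them, and 48.4% of the 399), and 0 genes were called in opposite directions. SEMA3C (5.02 in siLacZ cells and 5.0 in siRNF20 cells), IGFBP5 (4.88 and 4.61), ROBO2 (4.85 and 4.62), PMAIP1 (-2.90 and -3.24) and DUSP6 (2.77 and 2.84) had close log2 changes. LAMA4 (4.46 and 2.63), SLITRK6 (5.55 and 3.08), GABRP (3.89 and 1.95) and MEST (3.01 and 1.18) had smaller ones in siRNF20 cells. The difference between the responses, siRNF20 minus siLacZ, was called for 0 genes by limma (0%), the smallest adjusted p being 0.453, and 737 genes (3.93%) passed 0.05 without adjustment. With 1 RA array in siLacZ cells, a p that misses the threshold does not show that the responses were equal.

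**Figure D4:**
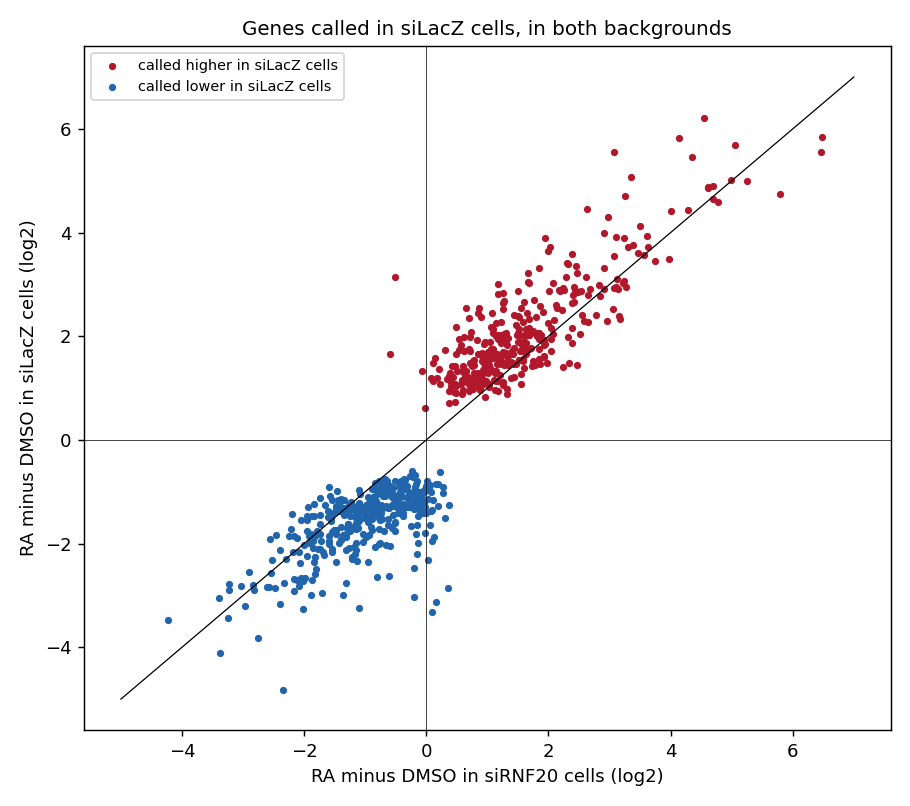
Each point is one of the 733 genes called in siLacZ cells, at its log2 change (RA minus DMSO) there on the vertical axis and in siRNF20 cells on the horizontal axis; the diagonal marks equal changes. Of 352 higher genes 348 lie to the right of 0, and of 381 lower genes 355 lie to the left of it; the genes were selected on the vertical axis.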

How the data were processed

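Whole-culture RNA of NTera2/D1 cells was labelled with biotin and hybridised to 8 arrays in 4 groups of duplicates, per the labels. The deposited table holds a linear intensity for each row of the array in each sample. The sources used here do not give the authors' background correction, their normalisation or the genome build. Upper quartiles ran from 54.9 to 55.1 on the 7 arrays of the fit and reached 59.8 on the array left out. The platform annotation gave exactly 1 symbol to 354600 of 1384231 rows; 14898 rows with several symbols and 1014733 without an entry were not used. RefSeq replaced 2950 older ones of 19497 symbols, which left 19426 genes. Rows with a mean at or below the median row were dropped as dim, and a gene was the median log2 of its other rows, with no further normalisation or offset, for 18732 genes.

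limma 3.58.1 in R 4.3.3 fitted 4 group means to 7 arrays with an intensity trend. Adjusted p-values come from that fit or a named alternative of it, are two-sided and use the Benjamini-Hochberg method over all genes tested, with a threshold of 0.05. The script was tested on simulated data. What GF117 and GF120 stand for is not in the labels, so the numbers were not taken as a pairing. Arrays have no depth in counts, and their number limits the precision. Gene lists are described by counts and medians, with no test of a list. The 50 lists, the arrays compared and the rules were chosen with earlier results of these data known. Named are, among called genes on at least 4 rows, the 15 highest and 15 lowest changes that lie beyond both DMSO arrays and are outside the HOX, retinoid and pluripotency lists, up to 3 members of each list, and the markers of the line; further members and neighbours were named after their values were seen. The counts among the genes of highest level were also added after the values were seen. Alternatives were all 8 arrays, the 3 siLacZ arrays, the number as a replicate block, the mean of rows, other filters, an offset of 16, quantile normalisation, no trend and leaving out each array. Python 3.11.15 with matplotlib 3.10.9 made the plots.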

Additional observations from a re-analysis of the deposited data

Results flagged for a closer look

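The GF117 RA siLacZ array, which the comparisons leave out, was read for the 15 genes with the highest changes, and 14 of them lay above the higher of the 2 DMSO siLacZ arrays there. The distance on the log2 scale was 5.07 for H19, 2.72 for FLJ12825, 2.72 for NR2F1, 2.19 for IGFBP5, 1.65 for LAMA4 and 1.46 for CDH20. It was 1.31 for SLITRK6, 1.22 for PLXNA2, 1.06 for ROBO2, 1.01 for GFRA1, 0.92 for MECOM, 0.47 for MIR99AHG, 0.44 for LAMP5 and 0.22 for SEMA3C. Of all genes 28.5% lay above both DMSO arrays on this array. Many of the 15 genes read low in DMSO, such as SLITRK6 at 1.43 and 2.90, while the median gene of this array read 5.51. The share of all genes is thus no reference of matched level, and the count cannot show whether the RA response was repeated.

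Of the called genes, 4 of the 352 higher and 26 of the 381 lower ones in siLacZ cells had the opposite sign in siRNF20 cells. Among the genes named by the rule, called or not, 4 had the RA array of the fit on one side of the DMSO arrays in siLacZ cells and both RA arrays on the other side in siRNF20 cells. The difference between the responses, siRNF20 minus siLacZ, was 1.05 for RPL9, 0.84 for SOX2, 0.47 for LIN28A and -0.24 for SALL4 on the log2 scale. None of these differences passed the test over all genes, and LIN28A and SALL4 were not called in siLacZ cells.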

How the results depend on the processing

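The 733 calls in siLacZ cells became 0 with all 8 arrays (1510 passed an unadjusted 0.05, the smallest adjusted p was 0.131 and the median of all genes -0.49), 1792 with the replicate block and 456 without the intensity trend. Leaving out each array gave 312 to 947 calls, with 60.9% of them higher without the GF117 DMSO array and 48.0% in the fit of 7 arrays; the other settings gave 608 to 799. The 734 calls in siRNF20 cells became 0 with all 8 arrays and 1959 with the replicate block, and 330 to 590 without each array in turn. The difference between the responses had 4 calls with the replicate block and 0 under every other setting run. The labels do not make the numbers a pairing, and there are 2 of them, too few to settle it from the data: when each array's distance from its group mean was correlated between arrays of one number, the 3 pairs of groups without RA siLacZ gave 0.297, 0.301 and 0.364, and the 3 pairs with it gave -0.081, -0.165 and -0.387. The cause of these shifts was not tested.

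Of the named genes the sign turned with all 8 arrays for BTG2 (-0.24), ELOVL6 (-0.99), FADS1 (-0.98), PDLIM1 (-0.053), PKP2 (-0.076), PODXL (-1.65), RB1 (-1.29) and SALL4 (-1.52). PODXL, at 0.04 and not called, also turned with the replicate block (-0.08), the mean of rows (-0.56) and within GF120 (-0.004), and ran from -0.004 to 0.085 without each array in turn. An offset of 16 ended 1 call of the named genes, that of D21S2088E, and made 26 folds over 1.5 times smaller; calls were also ended by quantile normalisation (4), the mean of rows (20), no filter on dim rows (17), a stricter filter (16) and no trend (38). Each named change rests on 1 RA array, so that no spread between RA arrays could be measured in siLacZ cells.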
